A study of Mus musculus with 8 samples.

Results

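The 10 genes described here build the MHC class II presentation pathway: H2-Aa, H2-Ab1 and H2-Eb1, H2-DMa, H2-DMb1, H2-DMb2 and H2-Oa, Cd74, Ciita and Ctss. They were chosen by gene symbol as parts of the pathway, by a rule that uses no measured value, though earlier results of these data were known, and all 10 were found among the 55487 genes of the count table. The 8 tumors sequenced were formed by Lewis lung carcinoma (LLC), a lung cancer line of C57BL/6 origin, after subcutaneous injection into C57BL/6J mice, which the study's methods describe as young females, and were collected at day 12. In 4 tumors the injected cancer cells were wild-type. In the other 4 the cells were labelled Ago2 knock-out (ΔAgo2), so that the comparison asks what happens to these transcripts when the cancer cells have lost Argonaute 2, the slicing enzyme of RNA interference. The labels name no treatment in either group. Per the study's methods, a CRISPR guide was delivered by lentivirus with drug selection and the engrafted knock-out cells were 1 single-cell clone, so the effect of the clone and that of the deletion cannot be told apart. The mice themselves carried Ago2, so immune and stromal cells kept it in both groups.

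MHC class II molecules show peptides from engulfed material to CD4+ T cells. They are made mainly by dendritic cells, B cells and activated macrophages, and interferon gamma can induce them in other cells through the transactivator Ciita. The alpha and beta chains assemble in the endoplasmic reticulum around the invariant chain, Cd74, which blocks the groove. Ctss, the cysteine protease cathepsin S, trims Cd74 in endosomes, and the H2-DM heterodimer (H2-DMa with H2-DMb1 or H2-DMb2) then exchanges the remaining fragment for a peptide, a step held back by H2-DO (H2-Oa with H2-Ob). In C57BL/6 mice H2-Aa and H2-Ab1 form the I-A molecule, whereas H2-Eb1 has no alpha chain partner because the H2-Ea gene of this haplotype is not functional. Ciita does not bind DNA itself and acts through RFX, CREB and NF-Y proteins that sit on the X and Y boxes of class II promoters.

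These boxes are the sequences through which class II genes are known to be controlled together. The promoter stretch of each member with a match within it is therefore shown first. In Ctss that match was to an interferon-stimulated element and not to a box. The stretches were copied from a RefSeq table on GRCm38.p6, which had entries for 7 of the 10 members, and H2-Ab1, Cd74 and Ciita are named only. Each stretch covers 100 bases, positions -110 to -11 from the start of transcription, 5′ to 3′ on the gene's strand. For H2-Eb1 (chr17:34305757-34305856, plus strand), H2-DMb1 (chr17:34153081-34153180, plus), H2-DMb2 (chr17:34145139-34145238, plus), H2-Aa (chr17:34287834-34287933, minus) and H2-Oa (chr17:34092269-34092368, plus), capitals mark the X box core (AGNNACNGA) and the Y box (GATTGG), on either strand. For Ctss (chr3:95526676-95526775, plus), capitals mark an interferon-stimulated element (GAAANNGAA).
H2-Eb1: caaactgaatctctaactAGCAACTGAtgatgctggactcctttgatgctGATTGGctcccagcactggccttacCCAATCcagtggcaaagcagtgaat
H2-DMb1: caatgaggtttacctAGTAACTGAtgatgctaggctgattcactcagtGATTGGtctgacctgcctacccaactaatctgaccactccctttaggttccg
H2-DMb2: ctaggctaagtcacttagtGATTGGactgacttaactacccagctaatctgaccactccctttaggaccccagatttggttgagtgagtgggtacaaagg
H2-Aa: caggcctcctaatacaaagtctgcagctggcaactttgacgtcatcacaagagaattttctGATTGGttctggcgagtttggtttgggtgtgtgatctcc
H2-Oa: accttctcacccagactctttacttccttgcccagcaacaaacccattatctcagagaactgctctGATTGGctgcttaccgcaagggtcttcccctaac
Ctss: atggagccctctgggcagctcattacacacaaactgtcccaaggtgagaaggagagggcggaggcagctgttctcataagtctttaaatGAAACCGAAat

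The Y box letters began at position -60 in H2-Eb1, -62 in H2-DMb1, -91 in H2-DMb2, -49 in H2-Aa and -44 in H2-Oa. In H2-Eb1 and H2-DMb1 an X box core stood upstream of it on the same strand within the stretch shown, at -92 and -95, and in H2-Oa one stood farther upstream, at -141. Single boxes are common: among all 32851 promoters of the table, each covering 300 bases, 17.7% held the X box core, 16.1% the Y box, 8.56% the interferon-stimulated element and 8.30% a gamma-activated site (TTCNNNGAA), which among the members stood in H2-DMb2, at position -218. The X box core 30 to 35 bases ahead of a Y box was rare, and 7 promoters (0.0213%) had it. These were H2-Eb1, H2-DMb1, the neighbouring class II beta gene H2-Eb2, and Fgf22, Aldh5a1, Gm33982 and Gm41048. That spacing was set after the matches in the members had been seen. Of the 2 promoters listed for H2-DMa, the more downstream held a Y box at position -199 and neither had a match in the stretch shown for the others. A match describes letters in this window and no more.

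Depth and composition differed between the libraries and bear on every value below. Totals ran from 7903288 counts in wild-type tumor 4 to 268564145 in ΔAgo2 tumor 4, so that 0 counts allow up to 0.38 CPM (counts scaled to a common library total) in the shallowest and 0.0112 CPM in the deepest library, counting error only. Gene levels followed GC content across 13651 genes in several libraries, with Spearman correlations of 0.68 and 0.65 in wild-type tumors 2 and 4 and -0.61, -0.45 and -0.59 in ΔAgo2 tumors 2 to 4. ΔAgo2 tumor 1 stood apart from its group, with a correlation of -0.02 with GC content and -0.49 with gene length. It received the lowest quality weight of the 8 libraries, 0.233, whereas ΔAgo2 tumor 4 received the highest, 5.27. The members' results are therefore given with and without ΔAgo2 tumor 1. Ago2 itself was measured at 130, 195, 151.3 and 138 CPM in the wild-type tumors and at 118, 355, 215 and 270.1 CPM in the ΔAgo2 tumors, each in the order of their numbers. Its log2 fold change of ΔAgo2 over wild-type was 0.64 (SE 0.30, adjusted p = 0.205, edgeR), and without ΔAgo2 tumor 1 it was 0.85 (adjusted p = 0.0441), whereas a correction for gene length gave 0.095 (adjusted p = 0.789). The transcript was thus not lower in the tumors labelled knock-out. A frameshift need not lower it and the host's cells contribute to it, so it does not check the labels.

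Class II transcripts were abundant in these tumors, and their order was compared on the deposited TPM scale, which divides by gene length. Cd74 was the highest on average at 695 TPM (418 to 1242 across the 8 tumors), followed by Ctss at 545 (167 to 924), H2-Ab1 at 269 (156 to 475), H2-Eb1 at 249 (147 to 437) and H2-Aa at 139 (84.8 to 251). The peptide-exchange genes were lower, with H2-DMb1 at 43.8 TPM (28.6 to 78.4), H2-DMa at 27.3 (16.0 to 49.3) and H2-DMb2 at 5.23 (3.96 to 8.24). Ciita was measured at 2.41 TPM (1.59 to 3.69) and H2-Oa at 2.00 (1.44 to 2.77). The steps from H2-Ab1 down to H2-DMb2 and on to Ciita held in 8 of 8 tumors. Cd74 exceeded Ctss in 5 of 8, Ctss exceeded H2-Ab1 in 6 of 8 and Ciita exceeded H2-Oa in 6 of 8, so the order of these 3 neighbouring pairs was not the same in every tumor. No member was at 0 in any library, and the lowest count was 8, for H2-Oa in wild-type tumor 4.

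Between genotypes no member differed past the threshold. By the edgeR quasi-likelihood test with Benjamini-Hochberg adjustment over all 16061 genes tested, 0 of 10 members were called, beside 560 genes in all (3.49%), and the DESeq2 Wald test and limma on log2 TPM also called 0. At an unadjusted p under 0.05 there was 1 member, Ctss, where 26.7% of all genes were under that value. The groups overlapped in all 10 members, whereas 16.4% of all genes had groups that did not overlap. The median log2 fold change was -0.20 over the members, 0.17 over the other pathway genes and 0.04 over all genes tested, with 4 members above 0 and 6 below. The exception was limma voom with quality weights, which gives ΔAgo2 tumor 1 little influence: it called 5 members lower in ΔAgo2 tumors (H2-Aa, H2-Ab1, H2-Eb1, H2-DMa and H2-Oa), while 13.0% of all genes were called lower.

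**Figure D1:**
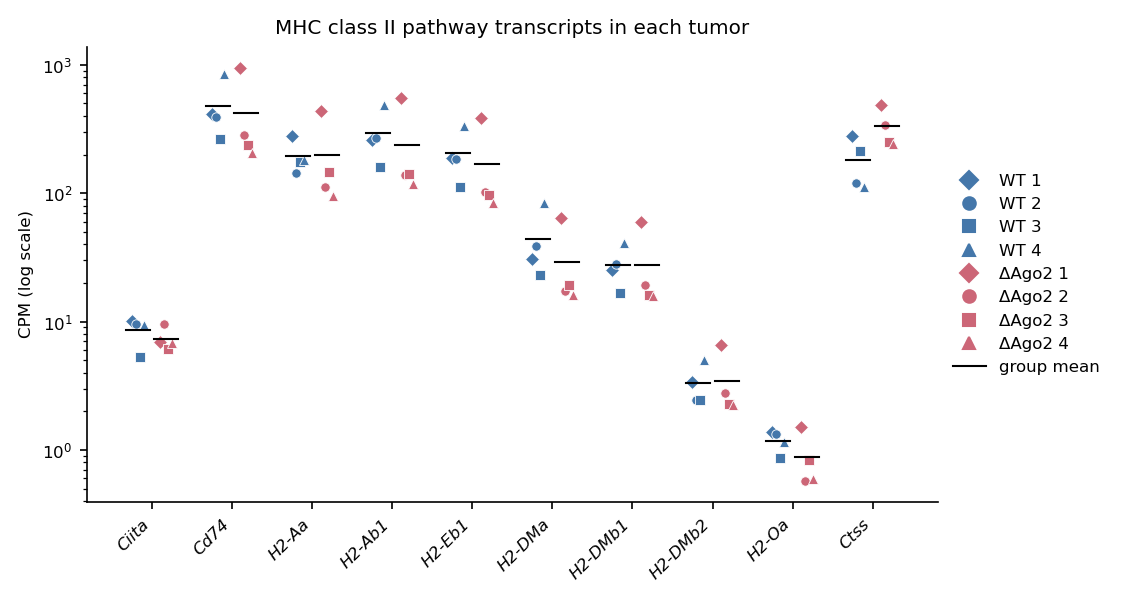
CPM of the 10 members in each tumor, on a log axis, with wild-type tumors in blue, ΔAgo2 tumors in red, 1 symbol per replicate number and a bar at each group's mean. ΔAgo2 tumor 1 (red diamond) is the highest of all 8 tumors for 8 of the members, and ΔAgo2 tumors 2 to 4 lie close together for H2-Ab1, H2-Eb1 and the H2-DM genes, less so for H2-Aa, Ciita and Ctss.

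In every member but Ctss the SD of the ΔAgo2 group was larger than the difference between the group means. ΔAgo2 tumor 1 was the highest of the 8 tumors for 8 of 10 members, the exceptions being H2-DMa, highest in wild-type tumor 4, and Ciita, highest in wild-type tumor 1. ΔAgo2 tumors 2 to 4 lay below every wild-type tumor for 4 members (H2-Ab1, H2-Eb1, H2-DMa and H2-Oa), and 18.6% of all genes showed that pattern. Without ΔAgo2 tumor 1, 9 of 10 members were lower in ΔAgo2 tumors and the median over the members was -0.79, against 0.00 over all genes. In that comparison 0 members were called, where 11.0% of all genes were, and 7 members were lower at an unadjusted p under 0.05, where 18.1% of all genes were. Leaving out the tumor that was highest for 8 members lowers their fold changes by construction. Most members also move together from tumor to tumor, so these counts are not independent observations. Wild-type tumor 4 was the shallowest library and the wild-type tumor with the highest H2-Ab1, H2-Eb1, H2-DMa, H2-DMb1, H2-DMb2 and Cd74. Without it the median was 0.08 with 3 members lower. With all 8 tumors and a per-library correction for GC content, the median over the members was 0.08 with 4 members lower. That correction was not fitted without ΔAgo2 tumor 1, so the part of the GC trends in that comparison was not tested.

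**Figure D2:**
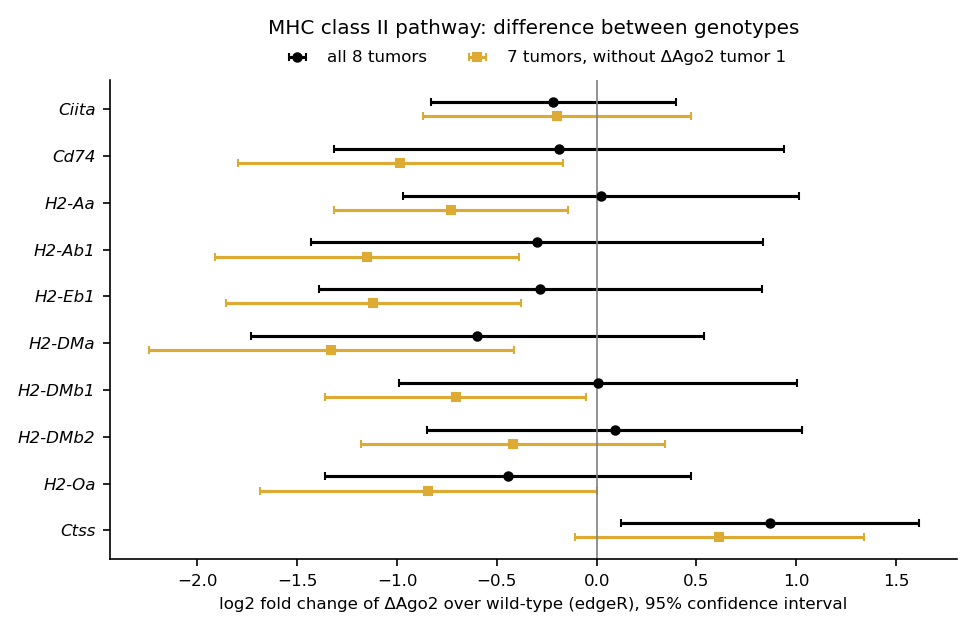
Log2 fold change of ΔAgo2 over wild-type for each member by edgeR, with 95% confidence intervals, from all 8 tumors (black circles) and from 7 tumors without ΔAgo2 tumor 1 (yellow squares). With 8 tumors every interval but that of Ctss (0.12 to 1.61) covers 0, and without ΔAgo2 tumor 1 the point estimates of the class II chains, Cd74 and H2-DMa lie between -0.73 and -1.33.

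Among the class II chains, H2-Aa encodes the I-A alpha chain and lies on chromosome 17 at 34282744-34287823 (GRCm38, minus strand). H2-Aa was measured at 278, 144, 174 and 180.0 CPM across wild-type tumors 1 to 4 and at 435, 112, 146 and 94.7 CPM in ΔAgo2 tumors 1 to 4. The highest and the lowest tumor were thus both ΔAgo2, and the group means were 194 ± 58.3 and 197 ± 160.3 CPM (SD, n = 4). Its log2 fold change was 0.02 (SE 0.45, 95% confidence interval -0.97 to 1.01, adjusted p = 0.980), and without ΔAgo2 tumor 1 it was -0.73 (SE 0.26, adjusted p = 0.0829). H2-Ab1, the I-A beta chain (chromosome 17, 34257689-34269419, plus strand), was measured at 258, 269, 159.1 and 489 CPM in wild-type tumors and at 556, 139, 142 and 118 CPM in ΔAgo2 tumors. Apart from ΔAgo2 tumor 1, the ΔAgo2 tumors lay below the lowest wild-type tumor. The log2 fold change of H2-Ab1 was -0.30 (SE 0.51, interval -1.43 to 0.83, adjusted p = 0.730), and -1.15 (SE 0.34, adjusted p = 0.0556) without that tumor.

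H2-Eb1, the I-E beta chain that lacks its partner in this strain, lies on chromosome 17 at 34305867-34316674 (plus strand) with an annotated antisense gene, Gm20513, over it. It was measured at 187, 184, 112 and 334 CPM across wild-type tumors 1 to 4 and at 388, 102, 97.6 and 83.8 CPM in ΔAgo2 tumors 1 to 4. As for H2-Ab1, all ΔAgo2 tumors but the first lay below every wild-type tumor. The log2 fold change was -0.28 (SE 0.50, interval -1.39 to 0.83, adjusted p = 0.741), and -1.12 (SE 0.33, adjusted p = 0.0551) without ΔAgo2 tumor 1. H2-Ab1 and H2-Eb1 kept a nearly fixed proportion: the ratio of H2-Eb1 to H2-Ab1 in TPM ran from 0.90 to 0.967 across the 8 tumors. The SD of their log2 CPM difference, 0.04, was the smallest of the 45 pairs of members. This is a description of 8 libraries that share their processing.

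H2-Aa did not keep that proportion with H2-Ab1, its own partner. The TPM ratio of H2-Aa to H2-Ab1 took the values 0.728, 0.362, 0.740 and 0.249 across wild-type tumors 1 to 4, and 0.530, 0.545, 0.692 and 0.543 across ΔAgo2 tumors 1 to 4. Wild-type tumors 2 and 4, the 2 lowest, were the libraries whose gene levels rose with GC content. The GC content of the longest transcript was 46.5% for H2-Aa, 57.3% for H2-Ab1 and 51.8% for H2-Eb1. With a per-library GC correction the log2 fold change became -0.16 for H2-Aa, 0.12 for H2-Ab1 and -0.24 for H2-Eb1, so that the sign turned for H2-Aa and H2-Ab1.

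**Figure D3:**
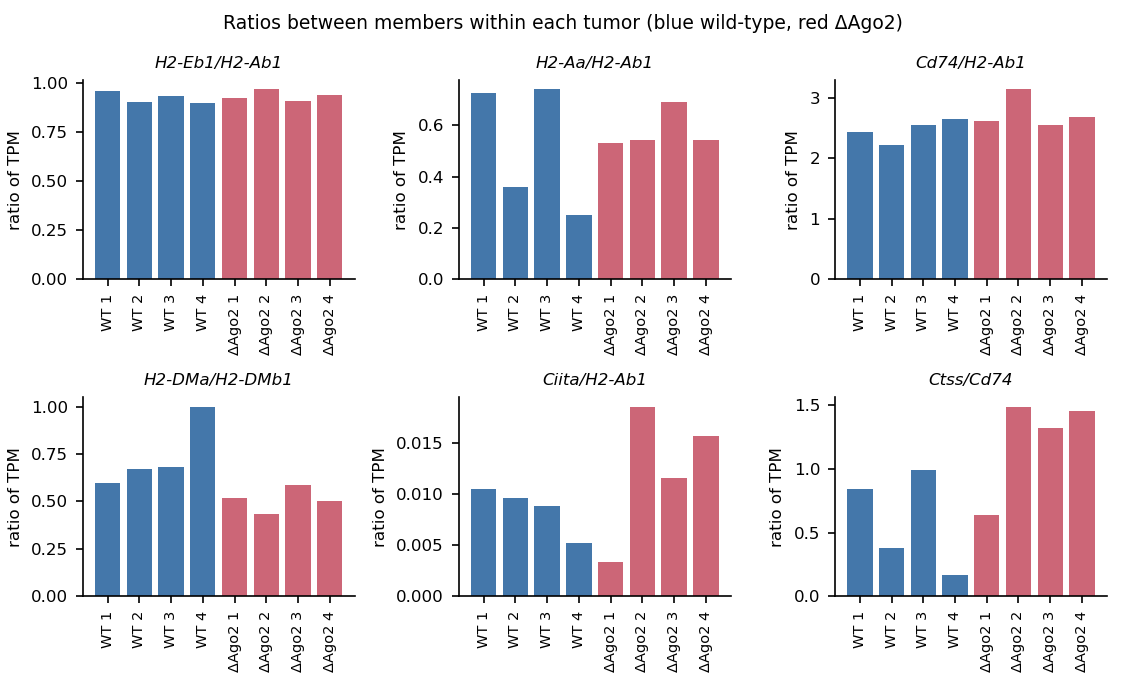
Ratio of TPM values between pairs of members within each tumor, 4 wild-type (blue) and 4 ΔAgo2 (red), each axis starting at 0. H2-Eb1 over H2-Ab1 is almost level (0.90 to 0.967), and H2-Aa over H2-Ab1 drops in wild-type tumors 2 and 4. H2-DMa over H2-DMb1 is lower in each ΔAgo2 tumor than in any wild-type tumor, which carries no test.

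Cd74, the invariant chain that chaperones the dimer, was measured at 412, 391, 265 and 846 CPM across wild-type tumors 1 to 4 and at 951, 286, 237 and 206 CPM in ΔAgo2 tumors 1 to 4. Wild-type tumor 3 lay below ΔAgo2 tumor 2, so the groups overlapped even apart from ΔAgo2 tumor 1. The means were 478 ± 253 and 420.0 ± 355 CPM (SD, n = 4). Between genotypes the log2 fold change of Cd74 was -0.19 (SE 0.51, interval -1.31 to 0.94, adjusted p = 0.836). Without ΔAgo2 tumor 1 it was -0.98 (SE 0.36, adjusted p = 0.0903), and without wild-type tumor 4 it was 0.26 (adjusted p = 0.815). Cd74 followed H2-Ab1, with a TPM ratio between 2.22 and 3.14 in the 8 tumors.

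Among the peptide-exchange genes, H2-DMa encodes the alpha chain of H2-DM and was measured at 30.8, 38.9, 23.2 and 84.3 CPM across wild-type tumors 1 to 4 and at 63.6, 17.2, 19.4 and 16.2 CPM in ΔAgo2 tumors 1 to 4. Its highest tumor was wild-type tumor 4, and ΔAgo2 tumors 2 to 4 were below every wild-type tumor. H2-DMa had the most negative log2 fold change of the members, -0.60 (SE 0.51, interval -1.73 to 0.54, adjusted p = 0.464). Without ΔAgo2 tumor 1 it was -1.33 (SE 0.41, adjusted p = 0.0594), without wild-type tumor 4 it was -0.07 (adjusted p = 0.948), and with the GC correction -0.32 (adjusted p = 0.763). Its annotated span on chromosome 17 (34119541-34139101, plus strand) overlaps Brd2 and 2 other genes on the opposite strand, and 1 on its own strand. The strand setting of the counting is not given in the sources used here, so reads from the 2 strands cannot be told apart.

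H2-DMb1, the main beta chain of H2-DM, was measured at 25.1, 28.2, 16.7 and 41.1 CPM in wild-type tumors and at 60.1, 19.2, 16.1 and 15.7 CPM in ΔAgo2 tumors. The group means, 27.8 ± 10.2 and 27.8 ± 21.6 CPM (SD, n = 4), were equal within rounding and gave a log2 fold change of 0.01 (SE 0.45, interval -0.99 to 1.00, adjusted p = 0.993). Leaving out ΔAgo2 tumor 1 turned it to -0.71 (SE 0.29, adjusted p = 0.117). H2-DMb2, its tandem copy on chromosome 17, was measured at 3.35, 2.43, 2.46 and 5.02 CPM in wild-type tumors and at 6.57, 2.76, 2.30 and 2.25 CPM in ΔAgo2 tumors. Again ΔAgo2 tumor 1 was the highest and wild-type tumor 4 came next. The log2 fold change of H2-DMb2 was 0.09 (SE 0.43, interval -0.85 to 1.03, adjusted p = 0.906), and -0.42 (SE 0.34, adjusted p = 0.387) without ΔAgo2 tumor 1. The transcripts of the pair share 179 windows of 100 bases, 11.3% of those of H2-DMb1 and 10.3% of those of H2-DMb2, and reads from these could be split between them, so the H2-DMb2 value in particular is uncertain.

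The subunits of H2-DM followed a similar profile over the tumors but not in a fixed proportion. The TPM ratio of H2-DMa to H2-DMb1 was 0.599, 0.672, 0.679 and 0.999 across wild-type tumors 1 to 4 and 0.516, 0.436, 0.588 and 0.501 in ΔAgo2 tumors 1 to 4. The groups did not overlap in this ratio, ΔAgo2 tumor 1 included, as in 16.4% of all single genes. It was 1 of 8 ratios looked at and carries no test. The limit given above for H2-DMa, whose span overlaps genes on the opposite strand, applies here too. H2-DMa and H2-DMb1 have GC contents of 55.1% and 53.8% and exon lengths of 3448 and 1681 bases, and the part of the libraries' trends on GC content and length in this ratio was not tested. H2-Oa, the alpha chain of the inhibitor H2-DO, was the least abundant member and was measured at 1.37, 1.33, 0.862 and 1.15 CPM in wild-type tumors and at 1.498, 0.570, 0.836 and 0.595 CPM in ΔAgo2 tumors. All but the first ΔAgo2 tumor lay below every wild-type tumor, by a narrow margin between 0.836 and 0.862 CPM. Its log2 fold change was -0.44 (SE 0.42, interval -1.36 to 0.47, adjusted p = 0.504), -0.84 (SE 0.38, adjusted p = 0.139) without ΔAgo2 tumor 1 and -0.14 (adjusted p = 0.874) with the GC correction. The gene rested on 8 to 170 counts per library, and BC051537 lies antisense to it.

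Ciita, the transactivator that class II genes depend on, did not follow them. It was measured at 10.1, 9.63, 5.26 and 9.46 CPM across wild-type tumors 1 to 4 and at 6.93, 9.61, 6.12 and 6.86 CPM in ΔAgo2 tumors 1 to 4. ΔAgo2 tumor 1, the highest for 8 other members, had less Ciita than 4 of the other tumors, and the lowest tumor was wild-type tumor 3. The log2 fold change was -0.22 (SE 0.28, interval -0.83 to 0.40, adjusted p = 0.635) and changed little without ΔAgo2 tumor 1 (-0.20, adjusted p = 0.649). The TPM ratio of Ciita to H2-Ab1 spanned 5.51-fold, from 0.00337 in ΔAgo2 tumor 1 to 0.0186 in ΔAgo2 tumor 2. With an exon length of 9535 bases Ciita is the longest member, and ΔAgo2 tumor 1 is the library with the strongest negative trend on length. A length correction moved its log2 fold change to -0.55 (adjusted p = 0.269). Dexi lies antisense to part of Ciita.

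Ctss, the protease that degrades the invariant chain, was the member with the largest positive difference. It lies on chromosome 3 at 95526786-95556403 (plus strand) and was measured at 280.0, 121, 212 and 113 CPM across wild-type tumors 1 to 4 and at 487, 343, 253 and 242 CPM in ΔAgo2 tumors 1 to 4. Wild-type tumor 1 lay above ΔAgo2 tumors 3 and 4, so the groups overlapped, and the means were 181 ± 79.8 and 331 ± 113 CPM (SD, n = 4). Its log2 fold change was 0.87 (SE 0.34, interval 0.12 to 1.61, unadjusted p = 0.0266, adjusted p = 0.140, edgeR), a ratio of 1.82. It was above 0 in each of the 23 alternative settings, from 0.25 to 1.17, with adjusted p from 0.0766 to 0.438 and so past the threshold in none. Ctss has the lowest GC content of the members, 46.0%, and its lowest tumors were wild-type tumors 2 and 4, the libraries with a positive GC trend. With the GC correction its log2 fold change was 0.63 (adjusted p = 0.318), and with the quality weights 0.25 (adjusted p = 0.438).

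Ctss therefore stood in a different proportion to its substrate from tumor to tumor. The TPM ratio of Ctss to Cd74 was 0.840, 0.382, 0.990 and 0.164 across wild-type tumors 1 to 4 and 0.633, 1.48, 1.32 and 1.45 in ΔAgo2 tumors 1 to 4. In ΔAgo2 tumors 2 to 4 Ctss exceeded Cd74, which it did in no other tumor. ΔAgo2 tumor 1 lay within the wild-type range. The GC content was 46.0% for Ctss and 56.6% for Cd74. The ratio was lowest in wild-type tumors 4 and 2, the libraries with a positive GC trend. It was highest in ΔAgo2 tumors 2 to 4, the libraries with the most negative GC trends. The part of these trends in the ratio was not tested.

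**Figure D4:**
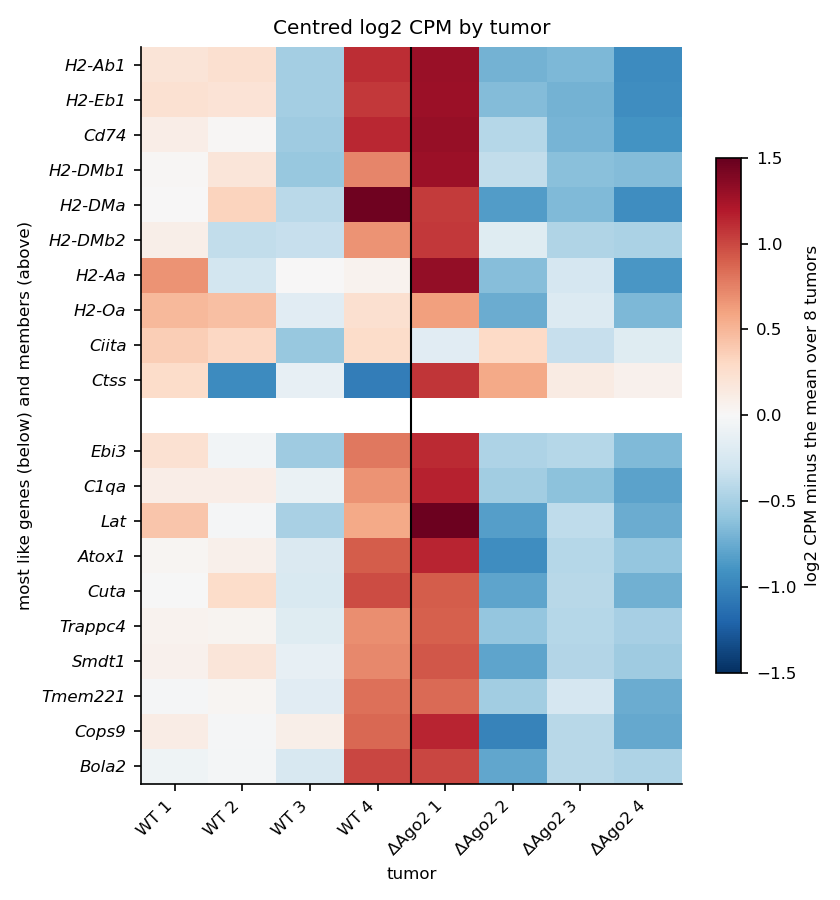
Log2 CPM of each member (upper block) and of the 10 genes whose profile is most like the class II profile (lower block), minus the gene's mean over the 8 tumors, on a color scale from blue (lower) to red (higher). H2-Ab1, H2-Eb1, Cd74 and the H2-DM genes share high values in wild-type tumor 4 and ΔAgo2 tumor 1 and low values in ΔAgo2 tumors 2 to 4, while Ciita and Ctss do not.

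The joint profile of H2-Aa, H2-Ab1, H2-Eb1 and Cd74, as centred mean log2 CPM, was 0.30, 0.05, -0.39 and 0.84 across wild-type tumors 1 to 4 and 1.30, -0.60, -0.58 and -0.91 in ΔAgo2 tumors 1 to 4. Likeness to it was measured as the root mean square difference over the 8 tumors. Of the members not in the profile, H2-DMb1 differed from it by 0.18, H2-DMa by 0.29, H2-DMb2 by 0.29, H2-Oa by 0.40, Ciita by 0.71 and Ctss by 0.97. Among 13063 other genes with a mean of at least 1 CPM, for which the median difference was 0.87, the nearest was Ebi3, a subunit of interleukin 27 and interleukin 35, at 0.15. It was followed by C1qa, a complement component made by macrophages, at 0.16 and by Lat, an adaptor of the T cell receptor, at 0.18. The next were Atox1 (0.22), Cuta (0.23), Trappc4 (0.25), Smdt1 (0.25), Tmem221 (0.25), Cops9 (0.25) and Bola2 (0.26). Ebi3 was measured at 5.34, 4.43, 3.13 and 7.88 CPM in wild-type tumors and at 9.95, 3.30, 3.37 and 2.87 CPM in ΔAgo2 tumors. C1qa was measured at 444, 444, 388 and 660.4 CPM in wild-type tumors and at 921, 288, 270.2 and 238 CPM in ΔAgo2 tumors, so in both genes ΔAgo2 tumor 1 was highest, wild-type tumor 4 next and ΔAgo2 tumor 4 lowest. All 8 points share the libraries' composition and depth, and the part of the libraries' length and GC trends in this likeness was not tested.

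These are bulk samples, in which fewer cells of a type and less RNA per cell cannot be told apart. Dendritic cell markers (10 genes) summed to 51.0 to 65.6 CPM in wild-type tumors, to 87.0 in ΔAgo2 tumor 1 and to 46.1 to 54.0 in ΔAgo2 tumors 2 to 4. Macrophage and monocyte markers (11 genes) summed to 2038 to 2484 CPM in wild-type tumors, 3794 in ΔAgo2 tumor 1 and 1755 to 2128 in ΔAgo2 tumors 2 to 4. T cell markers (7 genes) summed to 5.44 to 14.6, 29.7 and 6.20 to 8.66 CPM, in the same order. ΔAgo2 tumor 1 thus held the highest sums of these 3 lists, but their genes did not all go along. Of the dendritic cell markers only Batf3 and Clec10a were highest in it, and Flt3, at 3.32 CPM, was below every wild-type tumor (4.35 to 6.82). Of the macrophage and monocyte markers Fcgr1, C1qa, C1qb, C1qc, Cd14 and Lyz2 were highest in it. Mertk was lowest in it, at 5.52 CPM. All T cell markers were highest in it. The pan-leukocyte markers (5 genes) went otherwise, with their highest sum in wild-type tumor 4 at 906 CPM. ΔAgo2 tumor 1 had 840.0 CPM, the other wild-type tumors 462 to 690.2 and ΔAgo2 tumors 2 to 4 433 to 530.1. Within this sum Coro1a ran from 129 to 619 CPM in wild-type and from 124 to 341 CPM in ΔAgo2 tumors. Its log2 fold change was -0.87 (adjusted p = 0.263, edgeR). Ptprc went the other way, at 13.9 to 33.1 CPM in wild-type and 35.5 to 83.6 CPM in ΔAgo2 tumors. Its groups did not overlap, as in 16.4% of all genes, and its log2 fold change was 1.12 (adjusted p = 0.0785, edgeR). Of the 5 genes 3 were higher and 2 lower. The part of the cells these lists mark in the members' values was not tested. No gene of the pan-leukocyte, dendritic cell, macrophage, T cell or B cell lists was called, out of 37 tested (edgeR, adjusted p from 0.0594 up), while 7 were at an unadjusted p under 0.05, 3 higher and 4 lower, a share below the 26.7% of all genes. DESeq2 called 1 higher and 3 lower where it called 12.4% of all genes, and voom with quality weights 1 higher and 6 lower where it called 27.9%. Without ΔAgo2 tumor 1 edgeR called 1 higher and 4 lower of the 37, beside the 11.0% of all genes, and 27 of the 37 were lower.

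Relative to the summed markers, the class II level still differed between tumors. The genes of each list went both ways, with 3 higher and 7 lower among the dendritic cell markers. Among the macrophage and monocyte markers 5 were higher and 6 lower. These ratios are therefore not class II levels per cell. The summed CPM of H2-Aa, H2-Ab1, H2-Eb1 and Cd74 divided by that of the dendritic cell markers was 19.9, 17.1, 13.9 and 28.2 across wild-type tumors 1 to 4 and 26.8, 11.8, 12.0 and 10.9 in ΔAgo2 tumors 1 to 4. Divided by the macrophage and monocyte markers it was 0.477, 0.484, 0.286 and 0.821 in wild-type tumors and 0.614, 0.3002, 0.345 and 0.287 in ΔAgo2 tumors. Divided by the pan-leukocyte markers it was 1.93, 1.43, 1.54 and 2.04 in wild-type tumors and 2.77, 1.21, 1.27 and 1.16 in ΔAgo2 tumors. ΔAgo2 tumors 2 to 4 were below every wild-type tumor in the first and the last ratio, whereas wild-type tumor 3 was the lowest in the second. Of all single genes, 18.6% showed that pattern of ΔAgo2 tumors 2 to 4 below every wild-type tumor. B cell markers (6 genes) summed to 2.87 to 6.82 CPM in wild-type and 4.03 to 6.996 CPM in ΔAgo2 tumors, with the defining gene Ms4a1 at most 0.105 CPM. The lymph node markers (10 genes) summed to 3.44 to 12.2 and 11.5 to 14.8 CPM, and 6 of them, Cr2, Fcer2a, Glycam1, Ccl19, Madcam1 and Ighd, were each at 0 in at least 1 library and under 1 CPM in all. Of the markers of the labelled carcinoma, Krt8 and Krt18 were among the detected genes. The lung genes Nkx2-1 and Sftpc had 0 counts in all libraries and at most 1 count in any, respectively. The 7 genes of this list summed to 500.0 to 1259 CPM in wild-type and 716 to 1248 CPM in ΔAgo2 tumors. Of the 5 tested 4 were higher, 1 was lower and none was called. The largest difference was in Cdh1, at 2.44 to 6.91 CPM in wild-type and 8.49 to 14.0 CPM in ΔAgo2 tumors. Its groups did not overlap, as in 16.4% of all genes, and its log2 fold change was 1.38 (adjusted p = 0.0628, edgeR).

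Skin and skeletal muscle markers were looked at for tissue next to the tumor, though bulk counts do not show where their transcripts came from. Of 5 skin genes 1 was called, where 3.49% of all genes were, namely Krt10 at a log2 fold change of 2.06 (adjusted p = 0.0460, edgeR). The list summed to 8.72 to 535 CPM in wild-type and 404 to 790.2 CPM in ΔAgo2 tumors. The skin marker of Langerhans cells, which carry class II, was Cd207, and it stayed under 1 CPM in every tumor. The 5 muscle genes summed to 196 to 2965 CPM in wild-type and 33.4 to 162 CPM in ΔAgo2 tumors. The groups did not overlap in this sum, as in 16.4% of all single genes. None of the 5 was called (adjusted p from 0.0628 to 0.108, edgeR). The part of adjacent tissue in the members' values was not tested.

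The rest of the pathway was taken from a list of 30 other genes, of which 28 passed the filter. None was called by edgeR, 19 had a higher and 9 a lower mean in ΔAgo2 tumors, and 6 were at an unadjusted p under 0.05, 5 of them higher, a share below the 26.7% of all genes. The DESeq2 Wald test called 1 higher (12.4% of all genes in either direction) and voom with quality weights 6 higher and 3 lower, a share near its 27.9% of all genes. Without ΔAgo2 tumor 1 edgeR called 1, 14 were higher and 14 lower, and the sign turned in 5, and with the GC correction it called 0 and the sign turned in 7. The groups did not overlap in 5 of the 28 (Rfxank, Sppl2a, March8, Ifngr1 and Ifngr2), a share close to the 16.4% of all genes. The further class II chains were barely expressed. H2-Ob, the beta chain of H2-DO, was measured at 1.42, 1.43, 1.26 and 0.430 CPM in wild-type tumors and at 1.89, 1.42, 1.05 and 0.973 CPM in ΔAgo2 tumors (log2 fold change 0.16, adjusted p = 0.821). H2-Eb2, which shares the X and Y box spacing with H2-Eb1, was at most 0.388 CPM in any tumor. H2-Ea-ps, the alpha chain gene that is not functional in this haplotype, had 0 counts in every library.

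Of the 7 transcription factor genes that bind the X and Y boxes, 5 were higher and 2 lower, and 2 were at an unadjusted p under 0.05. Rfx5 was measured at 25.3, 33.4, 26.7 and 18.3 CPM in wild-type tumors and 14.6, 34.4, 31.3 and 30.8 CPM in ΔAgo2 tumors (log2 fold change 0.10, adjusted p = 0.854). ΔAgo2 tumor 1, with the most class II transcript, had the least Rfx5. That library also has the strongest negative trend on length, and the part of this trend in its Rfx5 value was not tested. Rfxap had a log2 fold change of -0.23 (adjusted p = 0.476). Rfxank was measured at 15.3, 24.6, 13.7 and 17.5 CPM in wild-type tumors and at 10.6, 13.0, 12.5 and 12.3 CPM in ΔAgo2 tumors. Every ΔAgo2 tumor was below every wild-type tumor, with a log2 fold change of -0.55 (SE 0.23, unadjusted p = 0.0374, adjusted p = 0.164, edgeR). With the GC correction it was -0.30 (adjusted p = 0.327, edgeR), and without wild-type tumor 2 it was -0.35 (adjusted p = 0.384, edgeR). Rfxank encodes the ankyrin subunit of RFX, and of the factors in the list Creb1 had the largest difference in the other direction, 0.96 (adjusted p = 0.132), which was 0.24 (adjusted p = 0.427) with the GC correction.

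Proteolysis and reduction, the 9 genes that prepare peptides and degrade Cd74 beside Ctss, had 5 higher and 4 lower. The largest difference was in Sppl2a, the intramembrane protease that clears the last Cd74 fragment, which was measured at 60.0, 29.7, 70.3 and 29.1 CPM in wild-type tumors and at 73.8, 146, 84.8 and 121 CPM in ΔAgo2 tumors. The groups did not overlap, and the log2 fold change was 1.17 (SE 0.34, adjusted p = 0.0787). It was past the threshold by DESeq2 (adjusted p = 0.0197), voom with quality weights (0.0155), without the count filter (0.0412), and without ΔAgo2 tumor 1 (0.0430) or wild-type tumor 3 (0.0430), and in none of the other settings. The GC correction cut the log2 fold change to 0.40 (adjusted p = 0.146), and the adjusted p was 0.208 with the replicate block and 0.199 without wild-type tumor 2. The endosomal enzymes Lgmn and Ifi30 and the inhibitor Cst3 had log2 fold changes of 0.17, 0.33 and -0.12 (adjusted p = 0.696, 0.539 and 0.832), and each was highest in ΔAgo2 tumor 1, at 847, 366 and 691 CPM. Without that tumor they were -0.14, -0.15 and -0.57 (adjusted p = 0.539, 0.636 and 0.105), so the sign turned for Lgmn and Ifi30.

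Turnover and the interferon gamma input were the remaining roles. The ubiquitin ligases March1 and March8, which send class II molecules to lysosomes, had log2 fold changes of 0.99 and 0.57 (adjusted p = 0.132 and 0.133), and March8 did not overlap between groups. With the GC correction March1 was at 0.23 (adjusted p = 0.617) and March8 at 0.47 (adjusted p = 0.129). Cd83, which opposes March1, was at -0.08 (adjusted p = 0.882). Irf1, a transcription factor induced by interferon gamma, had a log2 fold change of 0.11 (adjusted p = 0.793), and of -0.11 (adjusted p = 0.733) without ΔAgo2 tumor 1. Ifng was too low to be tested, with 0.0953 to 0.717 CPM in wild-type and 0.102 to 0.718 CPM in ΔAgo2 tumors. Its 2 highest tumors, wild-type tumor 4 with 5 counts and ΔAgo2 tumor 1 with 35, were the 2 highest for H2-Ab1, H2-Eb1 and Cd74, but not for H2-Aa, whose second highest was wild-type tumor 1. Ifngr1 (log2 fold change -0.33, adjusted p = 0.215) and Ifngr2 (0.55, adjusted p = 0.151), the receptor chains, each had groups that did not overlap, in opposite directions. Of the receptors that bind class II on T cells, Cd4 was at 0.09 and Lag3 at -0.70 (adjusted p = 0.907 and 0.394), and at -0.31 and -1.35 (adjusted p = 0.600 and 0.0666) without ΔAgo2 tumor 1.

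**Figure D5:**
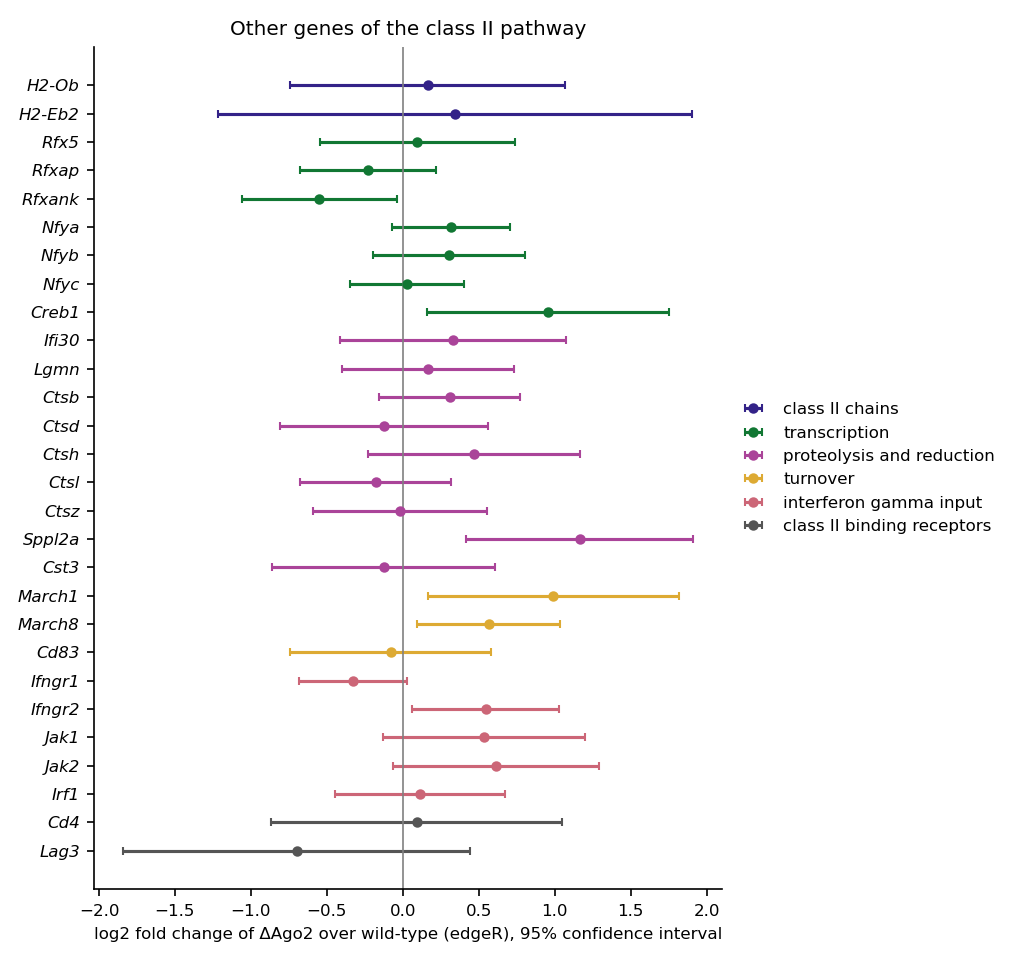
Log2 fold change of ΔAgo2 over wild-type with its 95% confidence interval (edgeR, 8 tumors) for the 28 other pathway genes tested, colored by role. Sppl2a (1.17), March1 (0.99) and Creb1 (0.96) lie farthest to the right (0.40, 0.23 and 0.24 with the GC correction, not drawn), and none of the 28 passed the adjusted threshold.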

How the data were processed

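RNA from 8 tumors (4 wild-type, 4 ΔAgo2) was sequenced with a stranded Illumina mRNA kit, paired-end. The batch label was 1 throughout. The authors deposited raw counts per gene and TPM values. For cultured cells the methods describe removal of ribosomal reads, alignment to mm10 and counting with featureCounts, and the submitters' processing notes name STAR for these samples. The strand setting and the handling of reads that map to several places are not given in the sources used here. The count divided by the deposited TPM followed GENCODE M21 exon length in every library, and 99.29% of identifiers matched that annotation (GRCm38). Groups came from the sample titles.

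Counts were fitted with edgeR 4.0.16 (R 4.3.3; filterByExpr, TMM, quasi-likelihood test, no covariate), with Benjamini-Hochberg adjustment over all genes and a threshold of 0.05. CPM use TMM-scaled totals, and log2 CPM a prior count of 2. Alternatives used DESeq2 1.42.0, limma 3.58.1, other scalings and filters, GC and length corrections, thinning to equal depth, the replicate number as a block and leaving out libraries. The procedure was tested on simulated data. Same-numbered tumors did not deviate together, and whether replicates came from separate cultures of cells is not stated, though each tumor came from 1 mouse.

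The members and all gene lists were chosen with earlier results of these data known. The genes named are the 10 members, Ago2, a fixed set of the other pathway genes (H2-Ob, H2-Eb2, H2-Ea-ps, Rfx5, Rfxap, Rfxank, Ifng, Irf1, Lgmn, Ifi30 and Cst3) and the 10 genes most like the class II profile. Creb1, Sppl2a, March1, March8, Cd83, Ifngr1, Ifngr2, Cd4, Lag3 and the marker genes named were picked after their values were seen. The other listed genes enter as counts, ranges and sums, and 1 pathway gene and 1 marker gene were dropped from the lists and are not reported here.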

Additional observations from a re-analysis of the deposited data

Results flagged for a closer look

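In a group of 4 tumors, a value was set aside for a closer look when its gap to the nearest other tumor, divided by the range of the group, exceeded Dixon's 95% critical value. Of 60 groups of values looked at, 17 had such a tumor, where about 3 are due by chance at 1 in 20, and these groups are not independent since the genes move together. In 13 of the 17 the tumor was ΔAgo2 tumor 1.

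Among the members, ΔAgo2 tumor 1 stood above the rest of its group at 435 CPM for H2-Aa (others 94.7 to 146), 556 CPM for H2-Ab1 (118 to 142), 388 CPM for H2-Eb1 (83.8 to 102) and 951 CPM for Cd74 (206 to 286). It stood above them also at 63.6 CPM for H2-DMa (16.2 to 19.4), 60.1 CPM for H2-DMb1 (15.7 to 19.2) and 6.57 CPM for H2-DMb2 (2.25 to 2.76). The same tumor stood above its group for other genes of the pathway: 0.718 CPM for Ifng (others 0.102 to 0.179), 165 CPM for Irf1 (94.9 to 104), 847 CPM for Lgmn (424 to 447), 366 CPM for Ifi30 (133 to 151.3) and 691 CPM for Cst3 (239 to 314). The T cell markers of that tumor summed to 29.7 CPM, and those of the rest of its group to 6.20 to 8.66 CPM.

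In the wild-type group, Ciita was low in tumor 3 at 5.26 CPM (others 9.46 to 10.1). H2-Ob was low in tumor 4 at 0.430 CPM (others 1.26 to 1.43), and Ifng was high in it at 0.717 CPM (others 0.0953 to 0.189), both in the shallowest library. The skeletal muscle markers summed to 2965 CPM in tumor 3, against 196 to 413 CPM in the others.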

How the results depend on the processing

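The members were called in none of the 8 fits that left out 1 tumor and in none of the other alternatives, except limma voom with quality weights, which called 5. Among all genes, 560 were called in the main comparison, 983 without a count filter, 964 with a length correction, 2214 by the DESeq2 Wald test, 4476 by voom with quality weights, 153 by limma on log2(TPM + 1), 107 with a pseudocount of 0.1 and 77 without a filter on TPM, and leaving out 1 tumor gave 88 to 1793. Other pathway genes were called 0 times, but 1 was called without a count filter, 1 by DESeq2, 9 by voom, and 0 to 1 when 1 tumor was left out.

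Log2 fold changes when 1 tumor was left out ran from -0.73 to 0.28 for H2-Aa, -1.15 to 0.080 for H2-Ab1, -1.12 to 0.076 for H2-Eb1, -0.71 to 0.27 for H2-DMb1, -0.42 to 0.35 for H2-DMb2, -0.98 to 0.26 for Cd74 and 0.38 to 0.85 for Ago2, whose call was gained without ΔAgo2 tumor 1. Without both wild-type tumor 4 and ΔAgo2 tumor 1, an alternative chosen after seeing the data like the length correction, H2-Aa was at -0.77, H2-DMb1 at -0.47 and H2-DMb2 at -0.19. In that fit H2-Ab1 was at -0.80, H2-Eb1 at -0.79, H2-DMa at -0.83, H2-Oa at -0.86, Cd74 at -0.57, Ciita at -0.16 and Ctss at 0.44. No member was called in it (adjusted p from 0.0673 to 0.745, edgeR). Voom with quality weights gave -0.98 for H2-Aa, -0.87 for H2-Ab1, -0.88 for H2-Eb1, -0.83 for H2-DMa, -0.95 for H2-Oa, -0.48 for H2-DMb1, -0.38 for H2-DMb2 and 0.86 for Ago2 (adjusted p = 0.0302, 0.0399, 0.0366, 0.0336, 0.0260, 0.143, 0.225 and 0.0140). Ago2 was at 0.39 with the GC correction and 0.095 with the length correction.

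Other values that turned sign were near 0 or moved with the GC correction, which gave -0.16 for H2-Aa, 0.12 for H2-Ab1, 0.18 for Cd74 and 0.033 for Ciita. At equal depth H2-Aa was at -0.012, H2-DMb1 at -0.14 and H2-DMb2 at -0.039. H2-DMb1 was at -0.0095 with DESeq2 size factors and -0.031 with the length correction. On log2(TPM + 1), with and without a filter, H2-Aa was at -0.0059 and Ciita at 0.017, and with a pseudocount of 0.1 at -0.0063 and 0.0195. H2-Oa had no value at equal depth or with at least 10 counts in every library. The cause was not tested for any of these.

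With the replicate block 70 genes were called and no member, and with the GC correction as well 256. Under the replicate block H2-Aa was at -0.23, H2-DMb1 at -0.19 and H2-DMb2 at -0.0088, and with the GC correction as well H2-Aa was at -0.57, H2-DMb1 at -0.040 and Ciita at 0.039. Deviations of same-numbered tumors correlated at -0.24, 0.10, -0.04 and -0.29, so the numbers do not pair the tumors. Among the members depth limits H2-Oa most, with as few as 8 counts in the shallowest library, and among the other genes named H2-Eb2, Ifng and H2-Ob, with as few as 0, 2 and 3.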
